A study of Mus musculus with 28 samples.

Results

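Levels of 10 genes of lipid uptake and lipid droplet storage were followed through the livers of mice given the plasticiser di(2-ethylhexyl) phthalate (DEHP). They were taken from the deposited expression table by their gene symbols, and all 10 were found among its 17792 genes. By role they were Cd36, Lpl and Pltp, which handle lipid at the cell surface and in plasma; Mogat1, which makes diacylglycerol; Plin2, Plin4 and Plin5, which coat droplets; Cidea and Cidec, which enlarge them; and G0s2, which inhibits the droplet lipase.

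Whole liver of C57BL/6 mice was sequenced in 28 libraries, and the labels call all animals male, of 20 to 30 g. Mice were gavaged with DEHP at 625 mg/kg body weight or with its vehicle, carboxymethyl cellulose (CMC) at 0.5%. Both agents were given for 28 or 90 days to mice whose macrophages lacked Pparg (KO) and to wild-type mice (WT), so that 8 groups arose: KO DEHP, KO CMC, WT DEHP and WT CMC at each time. Each group held 3 libraries at 28 days, numbered 5 to 7, and 4 at 90 days, numbered 1 to 4. The labels give 12 mice per group, name no promoter or line behind the macrophage deletion, and do not tie libraries to mice. P-values here therefore measure the spread between libraries, which may be technical.

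Hepatocytes take up fatty acids from plasma through surface proteins such as CD36, and lipoprotein lipase releases fatty acids from circulating triglyceride. Inside the cell, fatty acids are esterified to glycerol and kept in droplets, whose perilipin coat governs access of lipases and whose size is raised by the CIDE proteins. In rodent liver many of these genes are known targets of the peroxisome proliferator-activated receptors, and the monoester formed from DEHP activates these receptors.

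Levels are FPKM, the fragments per kilobase of transcript scaled to library size that the authors deposited, and such levels per length can be compared between genes. Fold changes are differences of log2(FPKM + 1), which understate the change of genes near 0. They were tested with limma across 11213 genes, two-sided, with Benjamini-Hochberg adjustment, and a gene passed at an adjusted p under 0.05. All 10 genes passed the filter of 1 FPKM in at least 3 libraries, but Mogat1 and Cidea passed it only through DEHP libraries (14 each, against 0 CMC libraries), so they had to differ by agent to be tested. Cidec reached 1 FPKM in 12 DEHP and 2 CMC libraries, so CMC libraries alone could not have admitted it. Plin4 reached this level in 2 DEHP and 3 CMC libraries, and the other 6 genes in all 28.

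The libraries as a whole read as liver, with transcripts of other tissue in some of them. Summed FPKM ran from 514267 to 647703 per library, and the spacing of low values in 1189 short genes put the depth at roughly 7960000 to 12180000 fragments, an approximate figure because only 51.1% to 65.9% of those values lay within 0.15 of a whole step. All 7 hepatocyte markers were present in every library, led by Alb at 14340 to 42760 FPKM. Pparg itself stood at 4.18 to 7.65 FPKM in DEHP livers and 1.51 to 5.20 FPKM in CMC livers of both genotypes, and it differed between KO and WT in no group past the test. Exocrine pancreas transcripts, at over 10 times the median sum, marked 5 libraries of 90 days (KO DEHP 1, 2 and 3, WT DEHP 4 and WT CMC 4). The adipocyte hormone gene Adipoq exceeded 1 FPKM in 5 libraries of 90 days (KO DEHP 1, 2 and 3, WT DEHP 3 and WT CMC 4). Summed endothelial markers were under 60 FPKM in 3 libraries (WT DEHP 5, WT CMC 7 and KO DEHP 4). Xist was at 26.7 to 41.0 FPKM in the libraries of 28 days and at 0 to 0.02 FPKM in those of 90 days, whereas the Y-linked gene Ddx3y was listed at 0 at 28 days and stood at 6.27 to 12.96 FPKM at 90 days. Time and the sex that these transcripts mark therefore cannot be told apart.

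Of the 10 genes, 7 rose with DEHP in both genotypes at 28 days, namely Cd36, Lpl, Pltp, Mogat1, Plin2, Cidea and Cidec. Mogat1 and Cidea reached the filter only through DEHP libraries, so they could be tested only by being higher with DEHP. Cidec needed DEHP libraries too, since only 2 CMC libraries reached 1 FPKM. Mogat1, Cidea and Cidec are part of the counts and medians given here but add no support to them. Plin4 fell in KO livers, and Plin5 and G0s2 passed in neither genotype. At 90 days Cd36, Lpl, Pltp, Mogat1 and Cidea rose in both genotypes and none fell. The same test called 20.4% of all genes in KO livers at 28 days (11.6% higher and 8.77% lower), 16.5% in WT livers at 28 days (10.3% higher and 6.17% lower), 5.65% in KO livers at 90 days (4.47% higher and 1.18% lower) and 6.8% in WT livers at 90 days (4.96% higher and 1.84% lower). The split of all calls moved with scaling: 57.0% were higher in KO and 62.6% in WT livers at 28 days, against 45.8% and 50.4% after upper quartile scaling. At 90 days 79.1% were higher in KO and 73.0% in WT livers, against 57.1% and 60.5% after upper quartile scaling and 49.1% and 61.0% after quantile normalization. The median log2 change of the 10 genes was 1.81 in KO and 1.48 in WT livers at 28 days, beside -0.04 and -0.01 over all genes. It was 1.47 in KO and 1.07 in WT livers at 90 days, beside 0.03 and -0.01 over all genes.

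**Figure D1:**
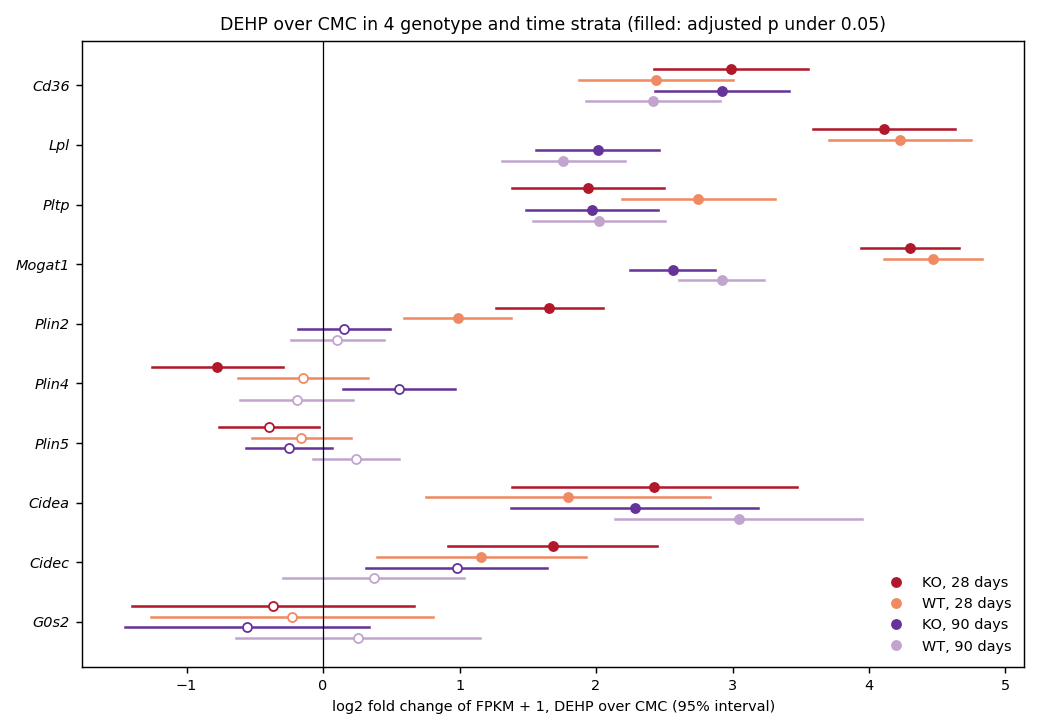
Fitted log2 fold changes of FPKM + 1, DEHP over CMC, for each of the 10 genes (rows) in KO and WT livers at 28 and 90 days, with 95% intervals; filled points passed the adjusted p of 0.05. Cd36, Lpl, Pltp, Mogat1 and Cidea lie right of 0 in all 4 strata, Plin2 and Cidec have filled points at 28 days, and G0s2 and Plin5 have none.

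Promoter sequence was examined for 8 of the genes. RefSeq tables of GRCm38.p6 held 10 promoters for them, and those of Mogat1, Cd36 and Plin2 are printed because these genes moved with DEHP and their 250 bases upstream of the start came closest to the repeat that peroxisome proliferator-activated receptors bind. That repeat, a pair of AGGTCA hexamers with 1 base between them, read on either strand, was found in 0.0335% of 32851 mouse promoters of the same length. Its looser form, with AGGNCA for both hexamers, was found in 0.338%, and neither form in these 10 promoters of the 8 genes. Capitals mark the whole stretch, with its spacer and mismatches, that matches the repeat in 10 of its 12 fixed positions. This degree of match was reached in 3.24% of all promoters and was chosen for display after the data were seen. Positions are counted from the start site, and the sequences run 5′ to 3′ on the strand of the gene.
Mogat1: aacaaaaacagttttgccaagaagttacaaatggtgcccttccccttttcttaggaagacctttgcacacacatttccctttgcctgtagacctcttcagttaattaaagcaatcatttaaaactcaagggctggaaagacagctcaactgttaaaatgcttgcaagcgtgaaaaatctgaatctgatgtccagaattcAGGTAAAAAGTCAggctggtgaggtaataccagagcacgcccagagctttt
Cd36: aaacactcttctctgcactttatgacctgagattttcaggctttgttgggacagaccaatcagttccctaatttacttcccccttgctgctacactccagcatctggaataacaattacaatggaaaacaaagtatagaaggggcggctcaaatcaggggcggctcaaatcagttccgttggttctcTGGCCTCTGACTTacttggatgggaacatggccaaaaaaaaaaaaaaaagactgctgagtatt
Plin2: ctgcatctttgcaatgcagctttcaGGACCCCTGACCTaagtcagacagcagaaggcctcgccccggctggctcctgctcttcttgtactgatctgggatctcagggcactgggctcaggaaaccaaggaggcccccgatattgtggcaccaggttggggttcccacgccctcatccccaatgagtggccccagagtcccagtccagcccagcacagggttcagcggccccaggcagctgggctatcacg
The Mogat1 promoter lies at chr1:78510810-78511059 on the plus strand, with its match at -51. The Cd36 promoter lies at chr5:17835897-17836146 on the minus strand, with its match at -63, and the Plin2 promoter at chr4:86670060-86670309 on the minus strand, with its match at -225. Both matches read on the opposite strand. The Cd36 stretch lies within the gene, which spans chr5:17781690-17888959, and belongs to an internal start. No stretch upstream of the outer end of Cd36 was examined. A single AGGTCA, which is also contained in the repeat, occurred in 14.0% of all promoters on either strand, and among these genes in those of Cd36 (at -228), Plin2 (at -218) and Plin5 (at -170). The best match was 9 of 12 positions in a promoter each of Plin5 and Cidec, 8 in those of G0s2 and Plin4 and 7 in that of Pltp.

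Cd36, the fatty acid translocase at chr5:17781690-17888959, rose with DEHP in all 4 strata. At 28 days it stood at 134, 153 and 149.6 FPKM in KO DEHP livers, against 26.0, 12.3 and 16.4 FPKM in KO CMC livers. In WT livers it stood at 93.4, 139 and 149.8 FPKM with DEHP, against 23.7, 23.8 and 19.6 FPKM with CMC. Every DEHP library of 28 days lay above every CMC library, and WT DEHP 5, one of the libraries low in endothelial markers, was the lowest of the DEHP libraries. The fold change was 2.99 ± 0.27 on the log2 scale in KO livers (SE, adjusted p = 2.02e-08) and 2.44 ± 0.27 in WT livers (adjusted p = 4.96e-07). In whole liver, a change in the number of cells of a type and a change in RNA per cell cannot be told apart, here or below.

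At 90 days the DEHP libraries of Cd36 lay below those of 28 days, and again above their CMC libraries. KO DEHP livers held 40.5, 40.7, 59.4 and 57.3 FPKM, against 4.79, 7.07, 4.94 and 5.65 FPKM in KO CMC livers. WT DEHP livers held 48.8, 44.5, 50.1 and 91.6 FPKM, against 8.27, 7.82, 8.13 and 16.7 FPKM in WT CMC livers. Library 4 was the highest of both WT groups of 90 days, and both of those libraries carried pancreas transcripts, whose part in the level was not tested. The fold change was 2.92 ± 0.24 in KO livers (adjusted p = 2.48e-08) and 2.42 ± 0.24 in WT livers (adjusted p = 3.96e-07). The change with DEHP differed between the times by -0.04 on the log2 scale (95% interval -0.57 to 0.48, adjusted p = 0.95).

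Lpl, lipoprotein lipase at chr8:68880555-68906932, had the largest fitted change of the 10 genes at 28 days in both genotypes, apart from Mogat1. It stood at 103, 112 and 105 FPKM in KO DEHP livers of 28 days, against 6.45, 4.99 and 4.39 FPKM in KO CMC livers. WT livers gave 104, 130.2 and 114 FPKM with DEHP, against 4.99, 7.87 and 3.51 FPKM with CMC. The DEHP libraries of the genotypes overlapped each other and lay far above all CMC libraries, and the mean FPKM was 20.2 times the CMC mean in KO livers and 21.3 times in WT livers. On the log2 scale the change was 4.11 ± 0.25 in KO livers (adjusted p = 1.93e-11) and 4.23 ± 0.25 in WT livers (adjusted p = 9.06e-12). Lpl ranked 7 from the highest of 11213 genes in the WT comparison of 28 days.

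At 90 days Lpl was again higher with DEHP, at a much lower level. It was at 18.3, 12.3, 26.3 and 19.8 FPKM in KO DEHP livers, against 3.15, 5.91, 3.63 and 3.14 FPKM in KO CMC livers. It was at 21.0, 18.7, 22.2 and 21.4 FPKM in WT DEHP livers, against 3.36, 5.27, 5.72 and 8.30 FPKM in WT CMC livers. All 8 DEHP libraries lay above the 8 CMC libraries and below every DEHP library of 28 days, while the CMC levels of the times overlapped. The change was 2.01 ± 0.22 in KO livers (adjusted p = 1.95e-06) and 1.76 ± 0.22 in WT livers (adjusted p = 1.40e-05). The effect of DEHP was smaller at 90 than at 28 days by -2.28 ± 0.24 on the log2 scale (adjusted p = 4.11e-07), a difference that cannot be told apart from that of sex transcripts.

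Pltp encodes the phospholipid transfer protein of plasma, which moves phospholipid from triglyceride-rich particles to high-density lipoprotein, and lies at chr2:164839518-164857708. Its level rose with DEHP in all 4 strata. KO DEHP livers of 28 days held 159, 145 and 143 FPKM, against 34.5, 36.7 and 43.4 FPKM in KO CMC livers. WT DEHP livers held 167, 174 and 258 FPKM, against 23.0, 30.2 and 32.6 FPKM in WT CMC livers. The DEHP and CMC libraries did not overlap, and WT DEHP 7 was the highest of all. The change was 1.94 ± 0.27 in KO livers (adjusted p = 7.57e-06) and 2.75 ± 0.27 in WT livers (adjusted p = 7.30e-08).

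Pltp kept this pattern at 90 days. KO livers gave 52.9, 63.2, 99.1 and 95.9 FPKM with DEHP, against 14.8, 16.5, 21.6 and 21.9 FPKM with CMC. WT livers gave 63.6, 59.4, 100.6 and 104.6 FPKM with DEHP, against 16.8, 15.4, 14.7 and 32.7 FPKM with CMC. The libraries of the agents did not overlap in either genotype, and WT CMC 4 stood above the other CMC libraries. The change was 1.97 ± 0.23 in KO livers (adjusted p = 8.03e-06) and 2.02 ± 0.23 in WT livers (adjusted p = 6.44e-06). The Pltp gene overlaps its neighbour Ctsa, Plin4 overlaps Hdgfl2, and Cidea the non-coding B430212C06Rik. Mogat1 overlaps the non-coding Gm39665, Cidec the non-coding Gm52871 and Plin2 the pseudogene Gm12551, which have no level here. The strand of the libraries is not stated, so reads of the shared stretches cannot be told apart.

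Mogat1, monoacylglycerol acyltransferase 1 at chr1:78511060-78606964, was near 0 in every CMC library and clearly present in every DEHP library. At 28 days it stood at 22.2, 21.6 and 24.2 FPKM in KO DEHP livers, against 0.07, 0.16 and 0.39 FPKM in KO CMC livers. WT livers gave 20.7, 26.6 and 21.7 FPKM with DEHP, against 0.07, 0.09 and 0.08 FPKM with CMC. The lowest DEHP library of 28 days thus exceeded the highest CMC library by a wide margin. The change was 4.30 ± 0.17 in KO livers (adjusted p = 3.29e-15) and 4.47 ± 0.17 in WT livers (adjusted p = 1.08e-15), on a scale where the pseudocount of 1 exceeds the CMC level. Because Mogat1 reached the filter only through DEHP libraries, a rise was a condition of its test, and these p-values describe the gap only.

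At 90 days Mogat1 rose to a lower level than at 28 days. It was at 5.30, 4.35, 8.67 and 5.67 FPKM in KO DEHP livers, against 0.05, 0.16, 0.08 and 0.36 FPKM in KO CMC livers. It was at 5.42, 8.08, 8.59 and 9.61 FPKM in WT DEHP livers, against 0.08, 0.16, 0.25 and 0.15 FPKM in WT CMC livers. The agents did not overlap, and the DEHP libraries of 90 days lay below all those of 28 days. The change was 2.56 ± 0.15 in KO livers (adjusted p = 6.79e-11) and 2.92 ± 0.15 in WT livers (adjusted p = 3.50e-12), with the same limit from the filter. Between the times the DEHP effect differed by -1.64 ± 0.16 (adjusted p = 2.33e-07), again together with the sex transcripts.

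Plin2, or adipophilin, coats droplets in most cells and was the most abundant of the 10 genes in every group (chr4:86626910-86670217). It rose with DEHP in both genotypes at 28 days and passed in neither at 90 days. KO DEHP livers of 28 days held 392, 477 and 365 FPKM, against 140.1, 135.5 and 113 FPKM in KO CMC livers. WT DEHP livers held 254, 359 and 316 FPKM, against 148, 141 and 176 FPKM in WT CMC livers. DEHP libraries lay above CMC libraries without overlap, and the 3 KO DEHP libraries lay above the 3 WT DEHP libraries. The change was 1.66 ± 0.19 in KO livers (adjusted p = 4.90e-07) and 0.99 ± 0.19 in WT livers (adjusted p = 0.000519).

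At 90 days the Plin2 libraries of the agents overlapped in both genotypes. KO livers gave 129, 122, 141 and 109 FPKM with DEHP, against 111, 77.9, 112 and 163 FPKM with CMC. WT livers gave 149, 114, 136 and 156 FPKM with DEHP, against 107, 152, 119 and 138 FPKM with CMC. The fitted difference was 0.15 in KO livers (95% interval -0.19 to 0.49, adjusted p = 0.71) and 0.11 in WT livers (95% interval -0.23 to 0.44, adjusted p = 0.79). The effect of DEHP was smaller at 90 than at 28 days by -1.19 ± 0.18 (adjusted p = 5.79e-05), with time and the sex transcripts confounded as above.

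Plin4 and Plin5 are neighbours on chromosome 17, at chr17:56100587-56109948 and chr17:56111597-56117606. Plin4, a perilipin best known from fat and muscle, was barely present in liver. It stood at 0.14, 0.17 and 0.22 FPKM in KO DEHP livers of 28 days, against 1.54, 1.36 and 0.36 FPKM in KO CMC livers. WT livers of 28 days gave 0.18, 0.26 and 0.20 FPKM with DEHP, against 0.47, 0.46 and 0.13 FPKM with CMC. The KO libraries did not overlap, and KO CMC 5 and 6 were higher than all other libraries of 28 days. Plin4 fell by 0.77 ± 0.23 in KO livers (adjusted p = 0.0176), and gave -0.15 ± 0.23 in WT livers (adjusted p = 0.75). Without either of those 2 KO CMC libraries the KO difference was -0.61 (adjusted p = 0.11, without 5) or -0.66 (adjusted p = 0.091, without 6), and without KO DEHP 5 or 6 the adjusted p was 0.0536 or 0.0505.

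At 90 days Plin4 was spread within groups and passed in neither genotype. KO livers gave 1.14, 0.74, 1.30 and 0.27 FPKM with DEHP, against 0.36, 0.13, 0.24 and 0.22 FPKM with CMC. WT livers gave 0.40, 0.51, 0.65 and 0.87 FPKM with DEHP, against 0.50, 0.68, 0.54 and 1.88 FPKM with CMC. The 3 KO DEHP libraries above 0.7 FPKM were those with pancreas transcripts and with Adipoq over 1 FPKM, and the highest library, WT CMC 4, carried both as well; the part of other tissue was not tested. The difference was 0.56 in KO livers (95% interval 0.14 to 0.97, adjusted p = 0.11) and -0.19 in WT livers (95% interval -0.61 to 0.22, adjusted p = 0.66). Without KO DEHP 4, a library low in endothelial markers, the KO difference was 0.73 and passed (adjusted p = 0.0406).

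Plin5, the perilipin of oxidative tissues that links droplets to mitochondria, passed in no comparison of the agents. KO livers of 28 days gave 22.2, 28.0 and 24.4 FPKM with DEHP, against 44.3, 35.8 and 22.5 FPKM with CMC. WT livers of 28 days gave 21.0, 19.3 and 20.2 FPKM with DEHP, against 21.6, 25.2 and 21.3 FPKM with CMC. The WT libraries were lower with DEHP without overlap but by little, and the KO libraries overlapped. The difference was -0.40 in KO livers (95% interval -0.76 to -0.03, adjusted p = 0.12) and -0.16 in WT livers (95% interval -0.52 to 0.20, adjusted p = 0.63). Without KO CMC 7, the lowest of its group, the KO difference was -0.66 and passed (adjusted p = 0.00473).

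At 90 days Plin5 stood at 14.2, 14.0, 11.5 and 12.97 FPKM in KO DEHP livers, against 15.3, 12.1, 18.4 and 18.2 FPKM in KO CMC livers. It stood at 18.5, 15.99, 21.6 and 15.8 FPKM in WT DEHP livers, against 13.2, 17.4, 15.6 and 14.0 FPKM in WT CMC livers. All of these groups overlapped between the agents. The differences were -0.25 in KO livers (95% interval -0.56 to 0.07, adjusted p = 0.43) and 0.24 in WT livers (95% interval -0.08 to 0.55, adjusted p = 0.42).

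Cidea, a droplet fusion protein best known from brown fat and encoded on chromosome 18, was listed at or near 0 in CMC livers and present in all 14 DEHP livers. Its libraries varied more within DEHP groups than those of Mogat1. At 28 days it stood at 9.41, 2.08 and 3.85 FPKM in KO DEHP livers and at 2, 2.46 and 3.02 FPKM in WT DEHP livers, and it was listed at 0 in all 6 CMC livers. One fragment would be worth about 0.0736 to 0.113 FPKM of this gene, so no fold is given against those groups. The fitted changes, which depend on the pseudocount, were 2.43 ± 0.51 in KO livers (adjusted p = 0.000886) and 1.79 ± 0.51 in WT livers (adjusted p = 0.0145). Like Mogat1, Cidea reached the filter only through DEHP libraries, so a rise was a condition of its test. The WT change was 1.69 without WT DEHP 7 (adjusted p = 0.0551).

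At 90 days Cidea rose in both genotypes, and its highest single level was in a WT liver. KO livers gave 1.32, 10.96, 6.6 and 1.85 FPKM with DEHP, against 0, 0, 0 and 0.07 FPKM with CMC. WT livers gave 2.42, 11.3, 16.1 and 12.3 FPKM with DEHP, against 0.26, 0, 0 and 0.63 FPKM with CMC. The agents did not overlap, while the DEHP libraries of the genotypes did. The change was 2.28 ± 0.44 in KO livers (adjusted p = 0.00234) and 3.05 ± 0.44 in WT livers (adjusted p = 8.54e-05), with the same limit from the filter. Without the libraries that held pancreas transcripts, which leaves KO DEHP 4 alone in its group, the KO change was 1.49. With a pancreas score as covariate the KO change was 1.70 (adjusted p = 0.177). With a score of the adipocyte genes Adipoq and Retn as covariate it was 1.51 (adjusted p = 0.426). The part of other tissue in the KO level was not tested.

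Cidec, the fat-specific protein FSP27 that enlarges droplets, rose at 28 days and was mixed at 90 days (chr6:113424634-113435760). KO livers of 28 days gave 4.83, 2.58 and 2.94 FPKM with DEHP, against 0.26, 0.58 and 0.25 FPKM with CMC. WT livers of 28 days gave 1.46, 1.76 and 3.57 FPKM with DEHP, against 0.51, 0.34 and 0.38 FPKM with CMC. The agents did not overlap in either genotype, but Cidec met the filter only with the help of DEHP libraries, which favours such a gap. The change was 1.68 ± 0.37 in KO livers (adjusted p = 0.00158) and 1.16 ± 0.37 in WT livers (adjusted p = 0.0326). The WT call was lost without WT DEHP 7 (0.89, adjusted p = 0.172), without any 1 of the 3 WT CMC libraries (adjusted p from 0.0641 to 0.0864) and with the replicate number as a block (adjusted p = 0.0591).

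At 90 days Cidec stood at 3.67, 2.46, 3.03 and 0.99 FPKM in KO DEHP livers, against 0.55, 0.72, 0.63 and 0.97 FPKM in KO CMC livers. It stood at 0.85, 1.48, 3.84 and 2.05 FPKM in WT DEHP livers, against 0.68, 1.4, 0.26 and 3.76 FPKM in WT CMC livers. The KO libraries just failed to overlap and the WT libraries overlapped. The 5 libraries of 90 days with Adipoq over 1 FPKM were the 5 highest for Cidec, at 2.46 to 3.84 FPKM, and 1 of them had received CMC. In the 6 DEHP livers of 28 days Adipoq was listed at 0, Retn at 0 to 0.21 FPKM and Cfd at 0 to 0.62 FPKM. The part of other tissue in the Cidec level was not tested. The difference was 0.98 in KO livers (95% interval 0.32 to 1.64, adjusted p = 0.0762) and 0.37 in WT livers (95% interval -0.29 to 1.03, adjusted p = 0.58). Without KO DEHP 4 the KO difference was 1.23 and passed (adjusted p = 0.0324).

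**Figure D2:**
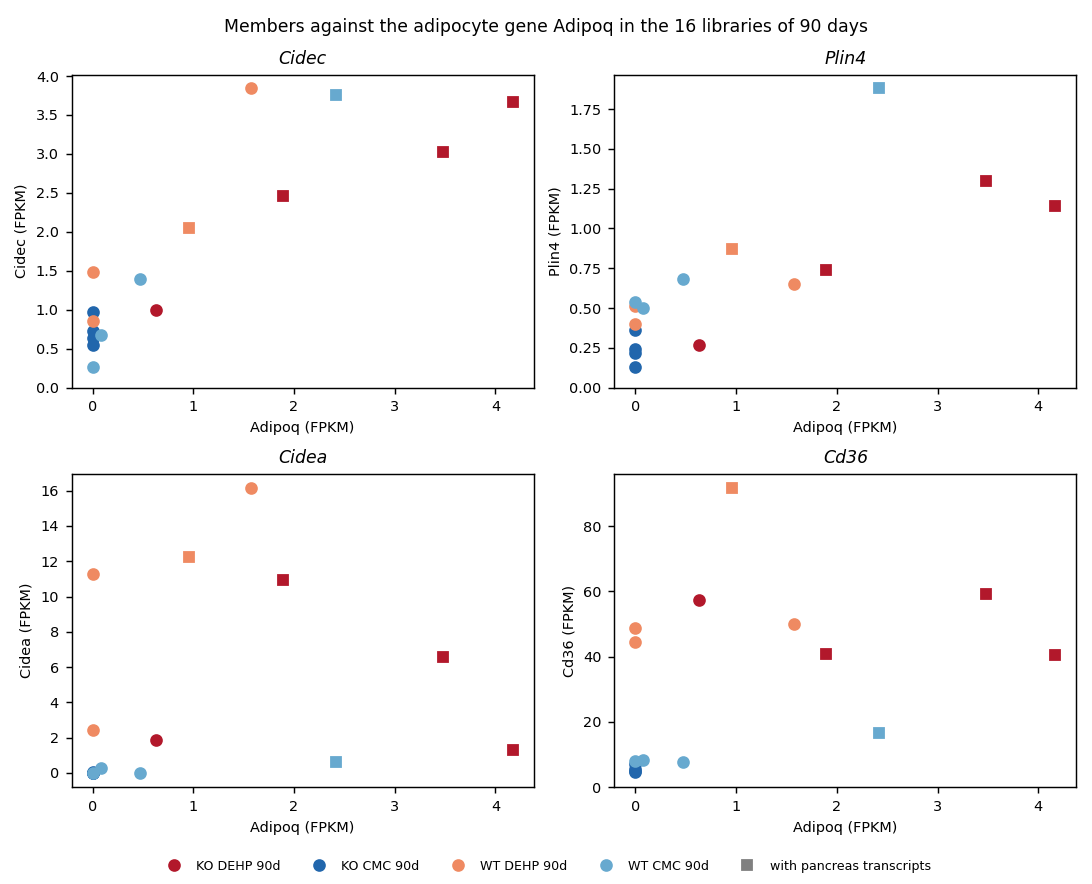
Cidec, Plin4, Cidea and Cd36 in FPKM (vertical axes) against the adipocyte gene Adipoq in FPKM (horizontal axis) in each of the 16 libraries of 90 days; squares mark the 5 libraries with pancreas transcripts. The 5 libraries with Adipoq over 1 FPKM have the highest Cidec, from 2.46 to 3.84 FPKM.

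Apart from Car3 and Cfd, adipocyte transcripts were low by level. Of the 8 listed adipocyte genes 5 were tested; none of the 8 was at 0 throughout the KO DEHP group of 90 days, 4 were listed at 0 throughout KO CMC, and 1 each throughout WT DEHP and WT CMC. The summed level ranged from 1025 to 1288 FPKM in KO DEHP, 575 to 1505 in KO CMC, 864 to 1395 in WT DEHP and 633 to 1703 in WT CMC livers of 90 days, but nearly all of it was Car3, which hepatocytes also express. Adipoq reached 4.17, 1.89, 3.48 and 0.63 FPKM in KO DEHP livers and was listed at 0 in all 4 KO CMC livers. In WT livers it was at 0, 0, 1.57 and 0.96 FPKM with DEHP, against 0.08, 0.47, 0 and 2.42 FPKM with CMC. Cfd stood higher, at 18.3, 12.48, 23.94 and 6.84 FPKM in KO DEHP livers, against 0, 0, 0.53 and 0 FPKM in KO CMC livers. WT livers gave 0.79, 2.29, 10.94 and 8.23 FPKM of Cfd with DEHP, against 1.24, 2.73, 0.11 and 19.89 FPKM with CMC. In KO livers of 90 days Adipoq (1.69, adjusted p = 0.00279), Retn (1.07, adjusted p = 0.0448) and Cfd (3.76, adjusted p = 0.00048) rose with DEHP, and 15 of 16 exocrine pancreas genes rose as well; in the other 3 strata no gene of these lists passed. The brown fat gene Ucp1, which marks cells that also make Cidea, was at 0 to 0.06 FPKM at 90 days. Adipocyte Plin1 was at 0.2 to 1.06 FPKM in KO DEHP livers and listed at 0 in KO CMC livers of 90 days.

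G0s2, the protein that inhibits adipose triglyceride lipase (chr1:193272160-193273188), passed in no comparison and varied widely among libraries. KO livers of 28 days gave 42.6, 28.5 and 43.3 FPKM with DEHP, against 56.3, 41.1 and 49.4 FPKM with CMC. WT livers of 28 days gave 55.8, 24.4 and 40.7 FPKM with DEHP, against 39.1, 44.6 and 51.6 FPKM with CMC. Both pairs of groups overlapped. At 90 days KO livers gave 15.8, 12.2, 26.5 and 17.9 FPKM with DEHP, against 27.8, 7.21, 47.2 and 46.1 FPKM with CMC. WT livers of 90 days gave 49.9, 27.6, 32.1 and 46.2 FPKM with DEHP, against 11.6, 41.6, 40.8 and 48.9 FPKM with CMC. Both pairs overlapped, and KO CMC 2 and WT CMC 1 were far below the other CMC libraries. The differences ranged from -0.56 (KO, 90 days, 95% interval -1.45 to 0.34, adjusted p = 0.57) to 0.26 (WT, 90 days, 95% interval -0.64 to 1.15, adjusted p = 0.81), so that the intervals of these differences together reach from -1.45 to 1.15.

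**Figure D3:**
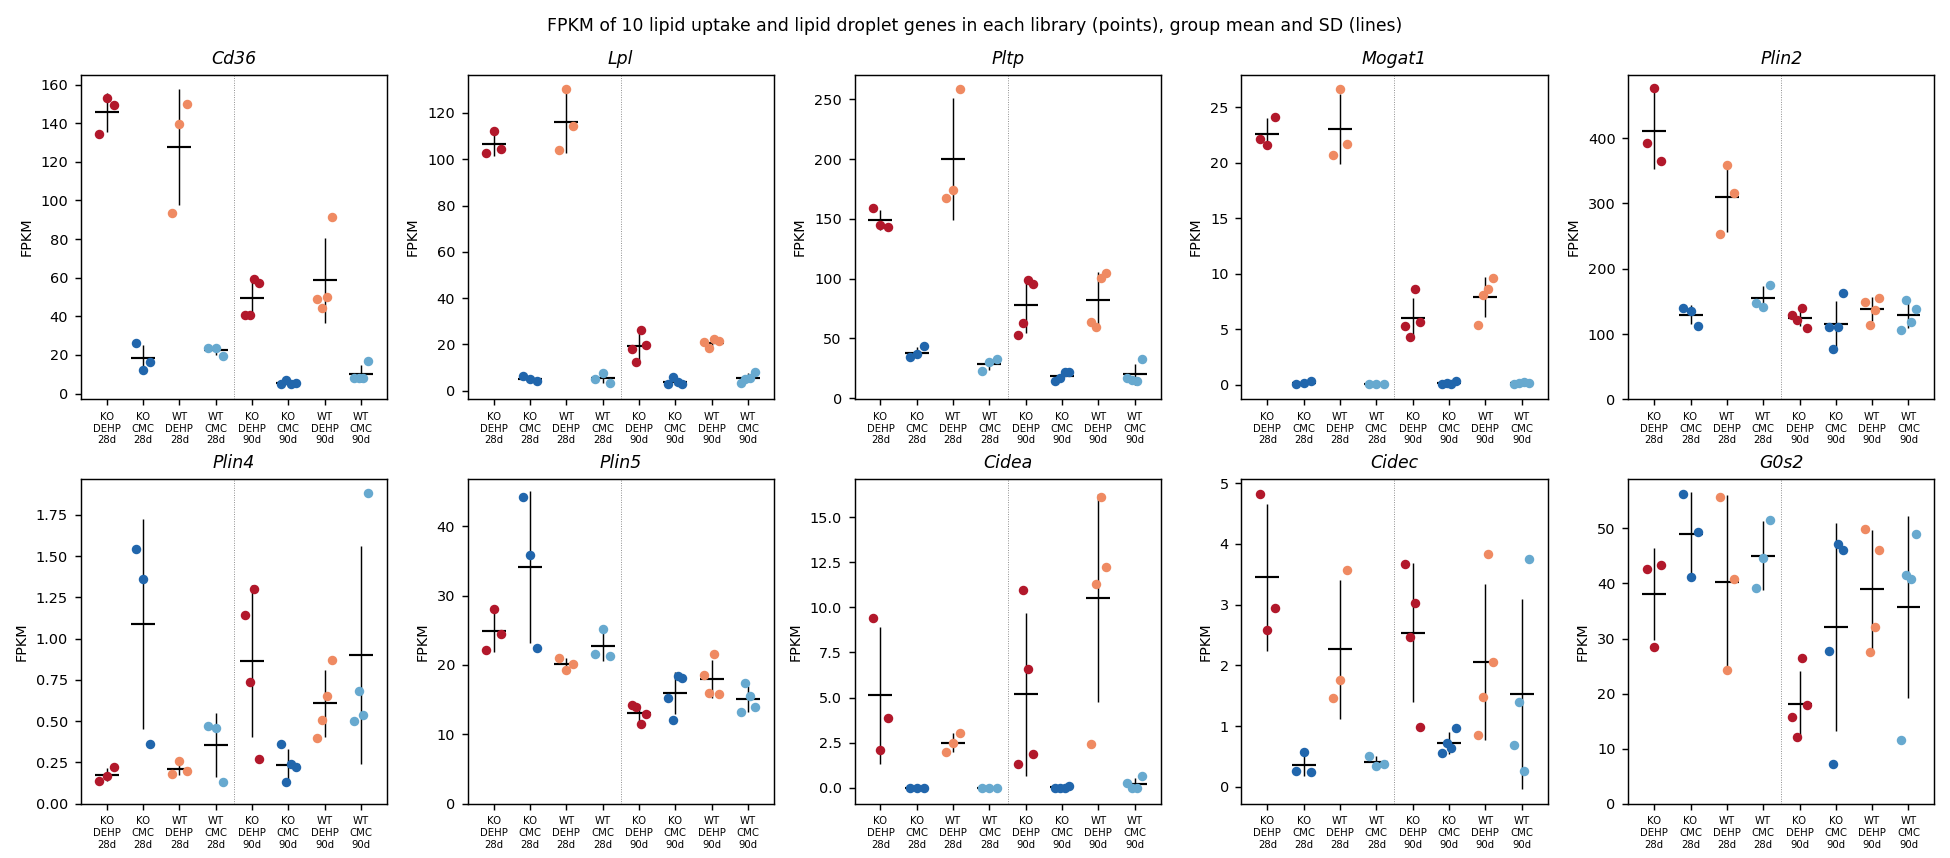
FPKM of each of the 10 genes in every library (points) with the group mean and SD (horizontal and vertical lines), for the 8 groups of 28 days (left of the dotted line) and 90 days; the vertical scales differ. Cd36, Lpl, Pltp and Mogat1 show DEHP groups above their CMC groups at both times, whereas G0s2 and Plin5 overlap between agents in most pairs.

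Across the set, Cd36, Lpl, Pltp, Mogat1, Plin2, Cidea and Cidec, 7 genes, had DEHP libraries wholly above CMC libraries in KO livers of 28 days, where this held for 19.2% of all genes. The same 7 did so in WT livers of 28 days (15.4% of all genes). At 90 days it was 6 in KO livers (8.89% of all genes), Plin2 being the one lost, and 5 in WT livers (7.07% of all genes), without Plin2 and Cidec. Mogat1 and Cidea are in each of these counts, but the filter admitted them only through DEHP libraries, which favours such a separation. Cidec, which is in all of these counts except that of WT livers of 90 days, also needed DEHP libraries to pass the filter. The part of Mogat1, Cidea and Cidec in the counts is therefore no support beside the shares of all genes. Wholly lower with DEHP were Plin4 in KO livers of 28 days (22.5% of all genes) and Plin5 in WT livers of 28 days (11% of all genes), and none at 90 days (3.46% of all genes in KO and 4.58% in WT livers).

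The summed level of the 10 genes reached 907 ± 56.9 FPKM in KO DEHP livers of 28 days and 276 ± 30.3 FPKM in KO CMC livers (SD, n = 3 each). In WT livers of 28 days it reached 842 ± 109 FPKM with DEHP and 279.9 ± 22.5 FPKM with CMC. At 90 days the sums were 317 ± 47.2 FPKM in KO DEHP and 193 ± 55.4 FPKM in KO CMC livers, and 378 ± 66.0 FPKM in WT DEHP and 219 ± 45.5 FPKM in WT CMC livers (SD, n = 4 each). The order of the levels changed with DEHP. With CMC it ran Plin2, G0s2, Pltp, Plin5, Cd36 and Lpl in all 4 groups. With DEHP it began Plin2, Pltp, Cd36 in all 4 groups, followed by Lpl in 3 of them and by G0s2 in WT livers of 90 days. Neighbours in this order often overlapped; in KO DEHP livers of 28 days, for example, Pltp (143 to 159 FPKM) and Cd36 (134 to 153 FPKM) did. Plin2 made up 45.4% of the sum in KO DEHP and 47.0% in KO CMC livers of 28 days, and Lpl made up 11.7% and 1.91%. In WT livers of 28 days Plin2 made up 36.8% with DEHP and 55.3% with CMC, and Lpl 13.8% and 1.95%.

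**Figure D4:**
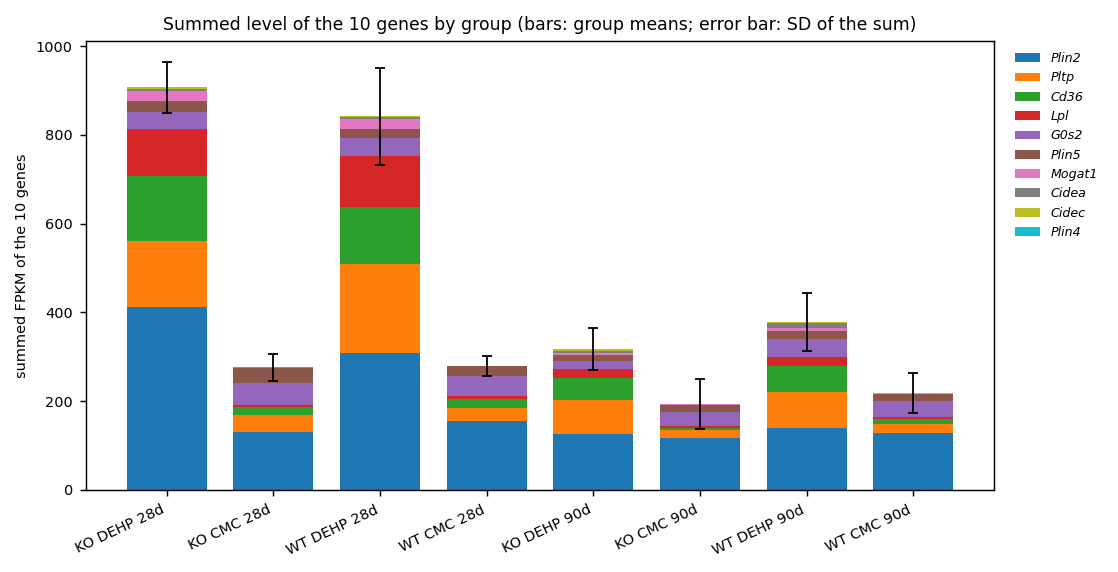
Summed FPKM of the 10 genes in the 8 groups, as bars stacked from the group means of each gene, with the SD of the sum over libraries as error bars. The DEHP groups of 28 days reach 907 (KO) and 842 FPKM (WT), and Plin2 is the largest single share of every bar.

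Between the times the effect of DEHP was smaller at 90 days for Lpl, Mogat1 and Plin2, where the same test called 9.82% of all genes (4.82% lower and 4.99% higher). Cidec gave -0.74 (95% interval -1.46 to -0.03, adjusted p = 0.21), Pltp -0.35 (95% interval -0.88 to 0.17, adjusted p = 0.47), Cidea 0.55 (95% interval -0.42 to 1.53, adjusted p = 0.56), Plin5 0.27 (95% interval -0.07 to 0.61, adjusted p = 0.36) and G0s2 0.15 (95% interval -0.82 to 1.11, adjusted p = 0.91). The Cidec difference passed with the pancreas score as covariate (-1.12, adjusted p = 0.0201), with the Adipoq and Retn score as covariate (-1.37, adjusted p = 0.000648), and without the libraries with Adipoq over 1 FPKM (-1.07, adjusted p = 0.0225) or these and those with pancreas transcripts (-1.15, adjusted p = 0.013). Plin4 gave 0.64 (adjusted p = 0.0616) and passed without KO CMC 7 of 28 days (0.78), WT CMC 7 of 28 days (0.70), KO DEHP 4 (0.73) or WT CMC 4 of 90 days (0.75), each taken out alone. Because every library of 28 days carried Xist and none of 90 days did, these are differences between sets of libraries that differ in both.

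Genotype made no difference that passed the test for any of the 10 genes. KO and WT were compared in each agent and time, as a genotype by DEHP interaction at each time and over the mean of the 4 strata, and limma called 0 of the 10 genes in all 7. The background was low too: 0.0178% of all genes differed between KO and WT with DEHP at 28 days, 0.0446% with CMC at 28 days, 0.508% with DEHP at 90 days (0.348% higher and 0.161% lower) and 0.00892% with CMC at 90 days. The interactions called 0.0178% at 28 and 0% at 90 days, and the mean of the strata 0.392%. At an unadjusted p under 0.05, 1 of the 10 genes differed with DEHP and 2 with CMC at 28 days (5.99% and 4.7% of all genes), 4 with DEHP and 2 with CMC at 90 days (11.9% and 6.78%), 2 in each interaction (2.99% at 28 and 5.82% at 90 days) and 0 in the mean of the strata (12.7%).

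With DEHP at 28 days, Plin2 averaged 412 ± 58.7 FPKM in KO and 309.6 ± 52.8 FPKM in WT livers (SD, n = 3 each), a difference of 0.41 (95% interval 0.02 to 0.81, adjusted p = 0.80). With CMC it averaged 129.6 ± 14.4 FPKM in KO and 155 ± 18.3 FPKM in WT livers, a difference of -0.25 (95% interval -0.65 to 0.14, adjusted p = 0.93). KO libraries lay wholly above WT libraries with DEHP and wholly below them with CMC. The interaction was 0.67 (95% interval 0.11 to 1.22, adjusted p = 1). Pltp showed the opposite layout, at 149 ± 8.70 FPKM in KO and 199.99 ± 50.7 FPKM in WT livers with DEHP, and 38.2 ± 4.66 FPKM in KO and 28.6 ± 5.003 FPKM in WT livers with CMC. Its interaction was -0.81 (95% interval -1.60 to -0.02, adjusted p = 1). Plin5 was also wholly higher in KO than in WT with DEHP at 28 days. With CMC at 28 days Plin5 gave 0.52 (95% interval 0.16 to 0.89) and Plin4 0.58 (95% interval 0.11 to 1.06), both with an adjusted p of 0.93 and with overlapping libraries. Non-overlap of this kind held for 6.09% of all genes with KO higher and 3.07% with KO lower under DEHP at 28 days, and for 8.39% and 1.98% under CMC.

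With DEHP at 90 days the 4 genes under an unadjusted p of 0.05 were all lower in KO livers. Pancreas transcripts marked KO DEHP 1, 2 and 3 but only WT DEHP 4 here, and their part in these differences was not tested. G0s2 averaged 18.1 ± 6.08 FPKM in KO and 38.9 ± 10.8 FPKM in WT livers (SD, n = 4 each), a difference of -1.08 (95% interval -1.97 to -0.18, adjusted p = 0.32). Plin5 averaged 13.2 ± 1.25 FPKM in KO and 17.98 ± 2.72 FPKM in WT livers, a difference of -0.42 (95% interval -0.73 to -0.10, adjusted p = 0.26). In both genes every KO library lay below every WT library, as in 1.69% of all genes, against 5.64% with KO wholly higher. Cidea gave -0.997 (95% interval -1.90 to -0.09, adjusted p = 0.36) and Mogat1 -0.36 (95% interval -0.67 to -0.05, adjusted p = 0.33), with overlapping libraries. With CMC at 90 days, Cd36 averaged 5.61 ± 1.04 FPKM in KO and 10.2 ± 4.30 FPKM in WT livers (-0.71, 95% interval -1.20 to -0.22, adjusted p = 0.49). Plin4 averaged 0.237 ± 0.0946 FPKM in KO and 0.90 ± 0.658 FPKM in WT livers (-0.57, 95% interval -0.98 to -0.15, adjusted p = 0.52), and both genes were wholly lower in KO, as in 1.67% of all genes, against 2.1% with KO wholly higher. WT CMC 4, which holds pancreas and adipocyte transcripts, was the highest library in both. The interaction at 90 days was 0.75 for Plin4 (95% interval 0.17 to 1.34, adjusted p = 0.82) and -0.49 for Plin5 (95% interval -0.93 to -0.04, adjusted p = 0.84).

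Over the mean of the 4 strata, the difference of KO from WT ranged from -0.31 for G0s2 (95% interval -0.80 to 0.17) to 0.12 for Plin5 (95% interval -0.05 to 0.29). The intervals were narrowest for Mogat1 (-0.23 to 0.11), Plin5 and Plin2 (-0.23 to 0.14), and widest for Cidea (-0.64 to 0.34) and G0s2. In each single stratum the intervals of Cidea and G0s2 reached past 1 log2 unit on at least 1 side. On log2(FPKM + 1), genes near 0 can differ only little, which holds for Plin4 and, with CMC, for Cidea and Mogat1.

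**Figure D5:**
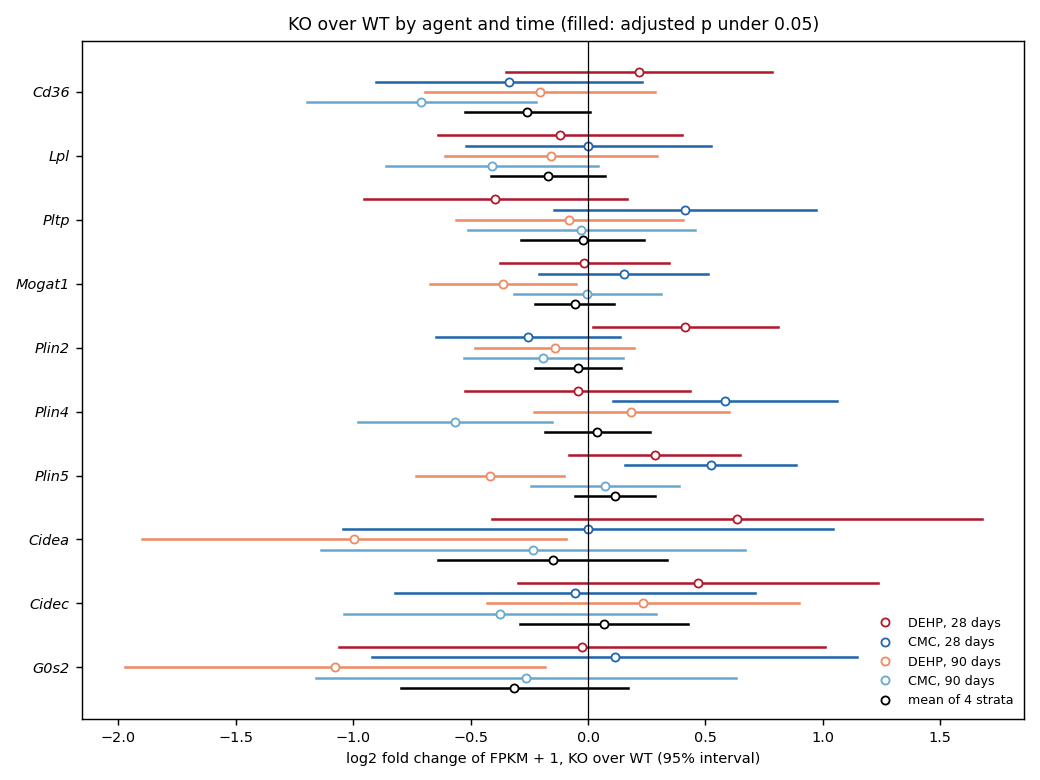
Fitted log2 differences of FPKM + 1, KO over WT, for each gene under DEHP and CMC at 28 and 90 days and over the mean of the 4 strata (black), with 95% intervals; open points did not pass the adjusted p of 0.05. All points are open, and the intervals of the mean lie between -0.80 and 0.43.

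Kupffer cells, the macrophages of liver, were present in every group. The 12 Kupffer markers summed to 301 to 511 FPKM in KO DEHP, 419 to 492 in KO CMC, 201 to 479 in WT DEHP and 223 to 554 in WT CMC livers of 28 days. At 90 days they summed to 257 to 383 FPKM in KO DEHP, 234 to 396 in KO CMC, 213 to 249 in WT DEHP and 254 to 370 in WT CMC livers. None of the 12 passed between agents or genotypes, nor did any of 8 endothelial markers. Of 7 genes of infiltrating macrophages 4 were tested, and Cd9 rose with DEHP in WT livers of 28 days (0.72), and of 8 stellate cell genes 2 fell in KO livers (Reln and Rgs5) and 3 in WT livers (Rgs5, Dcn and Des) of 28 days. Hepatocyte markers moved at 28 days, where 5 of 7 fell in KO and 4 of 7 in WT livers with DEHP, among them Alb (-0.67 and -0.64), Cps1 (-0.84 and -0.64) and Ass1 (-1.12 and -0.63); none passed at 90 days. Whether this had a part in the values above was not tested.

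None of the genes whose products govern lipoprotein lipase passed as higher beside Lpl. Of 10 such genes, 3 fell and none rose in KO livers of 28 days, and 2 fell and none rose in WT livers. They were Apoc3, whose product inhibits the lipase (-1.12 in KO and -1.11 in WT), Apoa5, whose product activates it (-1.14 and -0.96), and in KO livers Apoc1 (-0.43). At 90 days Apoc3 fell in KO livers (-0.48), and no gene of the list passed in WT livers. Gpihbp1, the endothelial anchor of the lipase, and Angptl4, its inhibitor, passed in none of the 4 strata, with 25.6 ± 5.94 FPKM in KO DEHP and 26.5 ± 0.670 FPKM in KO CMC livers of 28 days for Gpihbp1, and 27.4 ± 11.6 and 17.0 ± 2.94 FPKM for Angptl4.

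Other genes of fatty acid and lipoprotein uptake moved in both directions. Of 13, 8 rose and 3 fell in KO livers of 28 days, and 7 rose and 3 fell in WT livers. Over all genes the same test called 11.6% higher and 8.77% lower in KO livers of 28 days, and 10.3% higher and 6.17% lower in WT livers. Those shares, and those of 90 days given above, stand beside the counts of every list named before or after. The fatty acid transporter gene Slc27a1 rose to 29.0 ± 9.50 FPKM in KO DEHP livers, against 2.35 ± 1.30 FPKM in KO CMC livers (3.18, adjusted p = 4.14e-08), and by 2.81 in WT livers. Slc27a4 (1.03 in KO and 1.12 in WT), the fatty acid binding protein genes Fabp1 (1.64 and 1.33) and Fabp4 (1.88 and 2.55) rose too. Hepatic lipase, Lipc (-1.36 and -1.14), the HDL receptor gene Scarb1 (-1.04 and -0.56) and the bile acid ligase gene Slc27a5 (-0.51 and -0.35) fell. At 90 days 4 rose in KO livers and none fell, namely Slc27a1 (1.46), Slc27a2 (0.49), Fabp1 (0.96) and Fabp2 (1.55). In WT livers of 90 days Slc27a1 (1.73), Fabp1 (1.45) and Fabp2 (1.24) rose, and Lrp1 (-0.46) fell.

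Other droplet genes rose in part. Of 16 listed, 14 were tested, and 6 rose in each genotype at 28 days and none fell. Fitm1, which promotes droplet formation in the endoplasmic reticulum, rose to 87.9 ± 11.1 FPKM in KO DEHP livers, against 9.36 ± 1.58 FPKM in KO CMC livers (3.11, adjusted p = 8.16e-10), and by 3.002 in WT livers. Hsd17b11, a droplet-bound dehydrogenase, rose by 2.43 in KO and 2.48 in WT livers, and Bscl2, or seipin, by 0.98 and 0.71. Fitm2 (1.00 and 0.72), Mettl7b (0.98 and 0.56) and Plin3 (0.51 and 0.49) completed the list. At 90 days Fitm1 (1.14 in KO and 1.13 in WT) and Hsd17b11 (1.75 and 1.85) rose in both genotypes. Cideb, the CIDE protein gene of normal hepatocytes, did not pass in any stratum, at 159 ± 15.8 FPKM in KO DEHP and 172 ± 4.92 FPKM in KO CMC livers of 28 days.

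Among 11 genes of lipolysis, 6 rose and 2 fell in KO livers of 28 days, and 5 rose and 2 fell in WT livers. Pnpla2, the adipose triglyceride lipase that G0s2 inhibits, rose by 0.78 in KO and 0.68 in WT livers, its co-activator Abhd5 by 0.65 and 0.66, and Mgll, the monoacylglycerol lipase, by 1.52 and 1.17. Ces1f (0.84 and 0.65) and Pnpla3 (1.58 and 0.9995) rose too, and Lipe in KO livers (0.71). The carboxylesterase genes Ces3b (-1.69 and -1.68) and Ces3a (-0.71 and -0.82) fell. At 90 days Lipe, the hormone-sensitive lipase, rose in KO livers (0.60) and none passed in WT livers. Of 10 genes of acylglycerol synthesis, 9 were tested, and at 28 days 4 rose and 2 fell in KO livers, and 4 rose and 1 fell in WT livers. Gpam, the first enzyme of the path, rose by 1.47 in KO and 1.197 in WT livers, Lpin2 by 1.28 and 0.94 and Agpat3 by 0.35 and 0.41, with Mttp (0.58) in KO and Dgat1 (0.43) in WT livers, whereas Dgat2, which makes triglyceride, fell (-0.53 and -0.62), as did Lpin1 in KO livers (-0.87). Mogat2, the relative of Mogat1, was at 1.16 ± 0.425 FPKM in KO DEHP and 0.153 ± 0.105 FPKM in KO CMC livers of 28 days and did not reach the filter. At 90 days Lpin1 fell in KO livers (-1.29) and none passed in WT livers. Lpin1 (-1.004, adjusted p = 0.034) and Agpat2 (-0.46, adjusted p = 0.0483) were lower in KO than in WT with DEHP at 90 days, and no other gene of these lists passed between genotypes. In that comparison pancreas transcripts marked KO DEHP 1, 2 and 3 but only WT DEHP 4. Its calls over all genes numbered 57, and 5 with the Adipoq and Retn score as covariate. The part of other tissue in these differences was not tested.

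Among 8 partners of Pltp in the metabolism of high-density lipoprotein, 4 fell in KO livers of 28 days (Scarb1, Lcat, Apoa1 and Apom) and 2 in WT livers (Scarb1 and Apom), and none rose. At 90 days Lcat fell (-0.28) and Apoa2 rose (0.42) in WT livers, and none passed in KO livers. Of 5 nuclear receptor genes, Pparg rose at 28 days in KO (0.86, adjusted p = 0.0341) and WT livers (0.88, adjusted p = 0.0362) and at 90 days in KO livers (0.93, adjusted p = 0.0272). Ppard fell at 28 days in both genotypes (-0.72 and -1.15), Rxra fell in KO livers (-0.39), and Ppara passed in no stratum, at 38.4 ± 1.30 FPKM in KO DEHP and 27.1 ± 5.16 FPKM in KO CMC livers of 28 days.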

How the data were processed

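Gene expression in 28 mouse whole-liver libraries was read from 1 table of FPKM per gene that the authors deposited, with Entrez IDs and symbols. Per the submitters' processing notes, FPKM came from Cuffdiff on mm10 (GRCm38); the aligner and the strandedness of the libraries are not given in the sources used here. The 10 genes, the other gene lists and the tests were chosen with earlier results of these data known. Of the Entrez IDs, 17743 (99.7%) matched RefSeq's gene table of GRCm38.p6, which gave coordinates, promoters and overlaps.

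Values were analysed as log2(FPKM + 1) for the 11213 of 17792 genes that reached 1 FPKM in 3 or more libraries. One limma fit (version 3.58.1, R 4.3.3, trend, 20 residual and 4.17 prior degrees of freedom) held 8 group means over all 28 libraries. Contrasts were DEHP against CMC per genotype and time, KO against WT per agent and time and over the mean of the 4 strata, and the interactions. P-values were two-sided and adjusted over all genes tested by the Benjamini-Hochberg method, with a threshold of 0.05. Intervals are 95%. Python 3.11.15, numpy 2.4.6, pandas 2.3.3 and matplotlib 3.10.9 did the rest.

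Genes outside the 10 were named by a rule: up to 5 of each list with the smallest adjusted p, and every gene of a count of 5 or fewer. Cideb, Gpihbp1, Angptl4, Ppara, Ucp1 and Mogat2 were named outside it, for their known roles, after their values were seen. Some genes that the rule names are not reported here. Depth is not stated, and the estimate from the spacing of low values is too loose to recover counts, so no count test was run. The highest correlation between libraries was 0.994 (log2 values), and none held identical values.

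Same-numbered libraries deviated together only in WT livers of 90 days between agents, with correlations of residuals of 0.262, 0.252, 0.22 and 0.665 for numbers 1 to 4; the labels do not say what a number marks. Alternatives were a pseudocount of 0.1, a filter of 5 FPKM or none, upper quartile scaling, quantile normalization, library weights, smaller fits, a replicate block, a pancreas score as covariate, and leaving out each library or those with pancreas transcripts. After the data were seen, further alternatives were added: leaving out libraries with Adipoq over 1 FPKM, these together with those holding pancreas transcripts, or those low in endothelial markers, and a score of Adipoq and Retn as covariate.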

Additional observations from a re-analysis of the deposited data

Results flagged for a closer look

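Among 40 groups of 4 libraries, 1 for each gene and group of 90 days, 5 held a library that stood apart from the others by Dixon's 95% criterion. For independent, normally spread values, chance alone meets it in about 1 in 20 groups. The groups of different genes share the same libraries, so that rate cannot show an excess here. Library 4 of WT DEHP held 91.61 FPKM of Cd36, against 44.5 to 50.1 FPKM in the other 3. Library 4 of WT CMC held 16.66 FPKM of Cd36, 32.72 FPKM of Pltp and 1.88 FPKM of Plin4, in each case above the other 3 libraries of its group. These libraries both carried exocrine pancreas transcripts (26053 FPKM summed in WT DEHP 4 and 16027 FPKM in WT CMC 4, beside a median of 27.8 FPKM over all libraries), and their part in the levels was not tested. Library 4 of KO CMC held 0.07 FPKM of Cidea, a level near that estimated for 1 fragment, and the other 3 were listed at 0. With 3 equal values, any differing value meets the criterion.

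The effect of DEHP differed between 90 and 28 days by a test of the difference itself for 3 genes, and was smaller at 90 days in each. The difference was -2.28 for Lpl, -1.64 for Mogat1 and -1.19 for Plin2 on the log2 scale. Xist and Ddx3y split the libraries in the same way, so time and sex cannot be told apart.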

How the results depend on the processing

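The 28 results of the 10 genes that passed the test were refitted 660 times under the alternatives. Of these refits 644 passed in the same direction, 16 no longer passed and 0 turned round. Results of Mogat1, Cidea and Cidec are among the 28, and these genes needed DEHP libraries to meet the filter. Their part in these counts, and in the counts of genes that rose below, is therefore no support. The 92 results that did not pass gave 17 refits that did, among 2401; a further 133 changed sign without passing. No difference between KO and WT passed in 1253 refits, and no genotype by DEHP interaction in 549.

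In KO livers of 28 days the count of genes that fell with DEHP was 0, against 1, with a filter of 5 FPKM, with a fit of the same time point or of the compared groups alone, and without the libraries holding pancreas transcripts, those with Adipoq over 1 FPKM, or both. In each of these settings Plin4 no longer met the filter and was not tested. Leaving out each library in turn moved this count from 0 to 2. The count of genes with a larger DEHP effect at 90 than at 28 days was 1 (Plin4), against 0, with a pseudocount of 0.1 (1.69), with library weights (0.73) and without the libraries low in endothelial markers (0.78), and from 0 to 1 without each library in turn. The counts of genes that rose ranged from 7 to 7 in KO and 5 to 7 in WT livers of 28 days, and from 5 to 7 in KO and 5 to 5 in WT livers of 90 days, without each library in turn.

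Cidea in KO livers of 90 days lost its call with the pancreas covariate (1.70, adjusted p = 0.177) and with the Adipoq and Retn covariate (1.51, adjusted p = 0.426). Its change was 1.49 without the libraries holding pancreas transcripts, those with Adipoq over 1 FPKM or both. Each of these exclusions leaves KO DEHP 4 alone in its group, so they are not separate results. Cidec in WT livers of 28 days had an adjusted p of 0.0582 with no filter. Cidec in KO livers of 90 days passed with library weights (1.05, adjusted p = 0.0296) and without the libraries low in endothelial markers (1.23, 0.0378), as did Plin4 without those libraries (0.73, 0.0426). The smaller DEHP effect on Cidec at 90 days passed with the pancreas covariate (-1.12, adjusted p = 0.0201), the Adipoq and Retn covariate (-1.37, 0.000648), and without libraries with Adipoq over 1 FPKM (-1.07, 0.0225) or these and those with pancreas transcripts (-1.15, 0.013). The causes were not tested.

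With the replicate number as a block, the count of the 10 genes that rose in WT livers of 28 days was 6, against 7, Cidec being the one lost (1.16, adjusted p = 0.0591), and no other call among the 10 changed. In WT livers of 90 days, where the numbers deviated together, the block moved the calls over all genes only to 563 higher and 193 lower, against 556 and 206.

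Calls over all genes moved more. In KO livers of 90 days they numbered 633, 39 with the Adipoq and Retn covariate, 57 with the pancreas covariate and 912 with library weights. In WT livers of 90 days they ran from 219 to 1109, against 762, and in WT livers of 28 days from 1044 to 3184, against 1850. Between KO and WT they ran from 5 to 120 with DEHP at 90 days, against 57, from 1 to 218 with DEHP at 28 days, against 2, and from 5 to 153 over the mean of the strata, against 44. The planned exclusion of libraries by Adipoq, Retn, Lep and Adrb3 found no library over its limit and gave no value. Depth limits Cidea in CMC livers, most of which are listed at 0.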

Other observations

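Over the 28 libraries, genes whose levels ran closely with each of the 10 were found by Pearson correlation of log2(FPKM + 1), given as a description because the libraries fall into DEHP and CMC groups and share them. Cd36 ran with Vnn1 (r = 0.969) and Ehhadh (0.969), where Ehhadh encodes the bifunctional enzyme of peroxisomal fatty acid oxidation. Pltp ran with Ehhadh (0.959) and Acad10 (0.958), and Plin2 with the carnitine system genes Slc22a5 (0.949), Cpt2 (0.945) and Slc25a20 (0.935). Lpl ran with Cox6b2 (0.977), Slc27a1 (0.964) and Atp5g3 (0.961), and Mogat1 with Hsd17b11 (0.979), Cyp4a32 (0.964) and Slc35f2 (0.961). For the genes that varied within groups the highest values were lower: Cidea with Sucnr1 (0.848), Cidec with Chpt1 (0.803), Plin5 with Mfsd4b3 (0.873), G0s2 with Epha2 (0.73) and Plin4 with Mrm1 (0.686).

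Mogat2, which did not reach the filter, stood at 0.67 to 1.42 FPKM in KO DEHP and 0.05 to 0.26 FPKM in KO CMC livers of 28 days, and at 0.34 to 0.97 FPKM in WT DEHP and 0.10 to 0.17 FPKM in WT CMC livers.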
